A study of Mus musculus with 8 samples.

Results

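The transcripts described here encode 9 enzymes of the citric acid cycle: Cs, Idh3a, Idh3b, Ogdh, Dlst, Suclg1, Fh1, Mdh1 and Mdh2. They were taken by gene symbol from a table of 25574 mouse genes, and all 9 were found there. The cycle runs in the mitochondrial matrix, where acetyl-CoA joins oxaloacetate and is oxidised in steps that pass electrons to NAD+ and to the respiratory chain. Fully grown oocytes take up little glucose themselves and depend on pyruvate, which surrounding follicle cells supply and which enters the cycle as acetyl-CoA. In maturing oocytes transcription is silent, so the proteins made at this stage come from stored maternal mRNAs that are either loaded on ribosomes or kept in untranslated particles. Mdh1 is the cytosolic member of the list. It works with its mitochondrial counterpart Mdh2 in the malate-aspartate shuttle, which carries reducing equivalents into mitochondria.

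The study asked which mRNAs are bound to polysomes in mouse oocytes at nuclear envelope breakdown (NEBD), the first visible step of meiotic resumption. Polysomes are mRNAs carrying several ribosomes, and they were separated from lighter particles by scarce sample polysome profiling (SSP-profiling), a sucrose gradient method for small inputs. The non-polysomal (NP) dataset and the polysomal (P) dataset hold 4 libraries each, numbered 1 to 4. The paper pooled both from fractions of the same 4 gradient profiles, but no source used here ties a number to one gradient. The tests below treat all libraries as independent, except where a block for the number is stated. The NP fractions held ribosomal subunits, single ribosomes and stored particles, and the lightest fraction was left out. The authors could not exclude that heavy stored particles sedimented with polysomes, so NP and P do not equal untranslated and translated mRNA. Both datasets share every treatment. Oocytes came from gonadotropin-primed CD1 mice of 8 weeks, were collected in the meiotic inhibitor IBMX, were freed of it and cultured for 180 min, and were exposed to cycloheximide, which holds ribosomes on mRNA, at 0.1 mg/ml for 10 min. Each lysate was a pool of 200 oocytes, so no value describes a single cell or a single animal, and the authors describe the profiles as independent biological replicates. P against NP compares shares of 2 pools of RNA, and a lower share in P cannot be told apart from a change in the rest of that pool.

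Levels are given as FPKM, fragments per kilobase of gene, scaled to the size of the library. The value is divided by a gene length. For Suclg1 and Idh3b the length behind the FPKM was 4617 and 3422 bp, while an annotated transcript of each has 1519 and 1616 nucleotides, so their levels would be 3.04 and 2.12 times as high per annotated transcript length, against 0.931 to 1.43 times for the other 7. For Cs, Idh3a, Dlst and Mdh2 the length was searched as the shortest that gave whole reads, so the true one may differ. Ratios of the FPKM of one gene between datasets are not touched by the length. Fold changes on log2(FPKM + 1), used below, depend on it at low levels such as those of Idh3b, because 1 is added to each value. The number to which the values were scaled, recovered from the steps between FPKM values, was 1299375 to 7594626 in NP and 2677946 to 4699322 in P, so that 1 read on a gene of 1 kb was worth 0.132 to 0.770 FPKM. Values above 0 were listed for 11703 to 13753 genes in the NP libraries and for 9139 to 11339 genes in the P libraries. All 10 oocyte marker genes, among them Gdf9, Bmp15 and Zp3, were present, with summed levels of 5342 to 11320 FPKM in NP and 7842 to 30474 FPKM in P. Of 12 marker genes of cumulus and granulosa cells, 4 (Foxl2, Inhba, Has2 and Ptx3) were at 0 in all 8 libraries and 8 never reached 1 FPKM. Their summed level was 15.3 to 94.4 FPKM in NP and 2.38 to 64.0 FPKM in P, nearly all of it from Cyp19a1, Nr5a2, Kitl and Tnfaip6, and the part of other cells in the results below was not tested.

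Both datasets contained the transcripts of all 9 enzymes, although P library 4 held no Idh3b, and their mean levels ranged from 2.69 FPKM for Idh3b in P to 374 FPKM for Mdh2 in NP. In mean FPKM, Fh1, Idh3b and Mdh2 were 2.47, 5.03 and 1.95 times as high in NP as in P, while Mdh1 and Idh3a were 3.00 and 2.08 times as high in P. None of these differences passed the test after adjustment: limma, fitted on log2(FPKM + 1) over 14292 genes and adjusted by Benjamini-Hochberg (calls at an adjusted p below 0.1), called 0 of the 9 genes. At an unadjusted p below 0.05, 1 of the 9 (Idh3b) was lower in P and 0 were higher in P. Voom, the weighting in limma for read counts, was also run on the reads recovered from the FPKM steps. It called 0 of the 9, against 195 of all genes it tested. Over all genes tested the fit on log2(FPKM + 1) called 3, or 0.021%. These were Tmem104, AC132131.1 and Morc1, named here after their values had been seen. At an unadjusted p below 0.05, 9.47% of all genes were lower in P and 0.476% were higher in P. At a share called of 0.021%, 0 calls are usual for any list this small. DESeq2, the test the study itself used, reported far more transcripts as differing between NP and P.

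**Figure D1:**
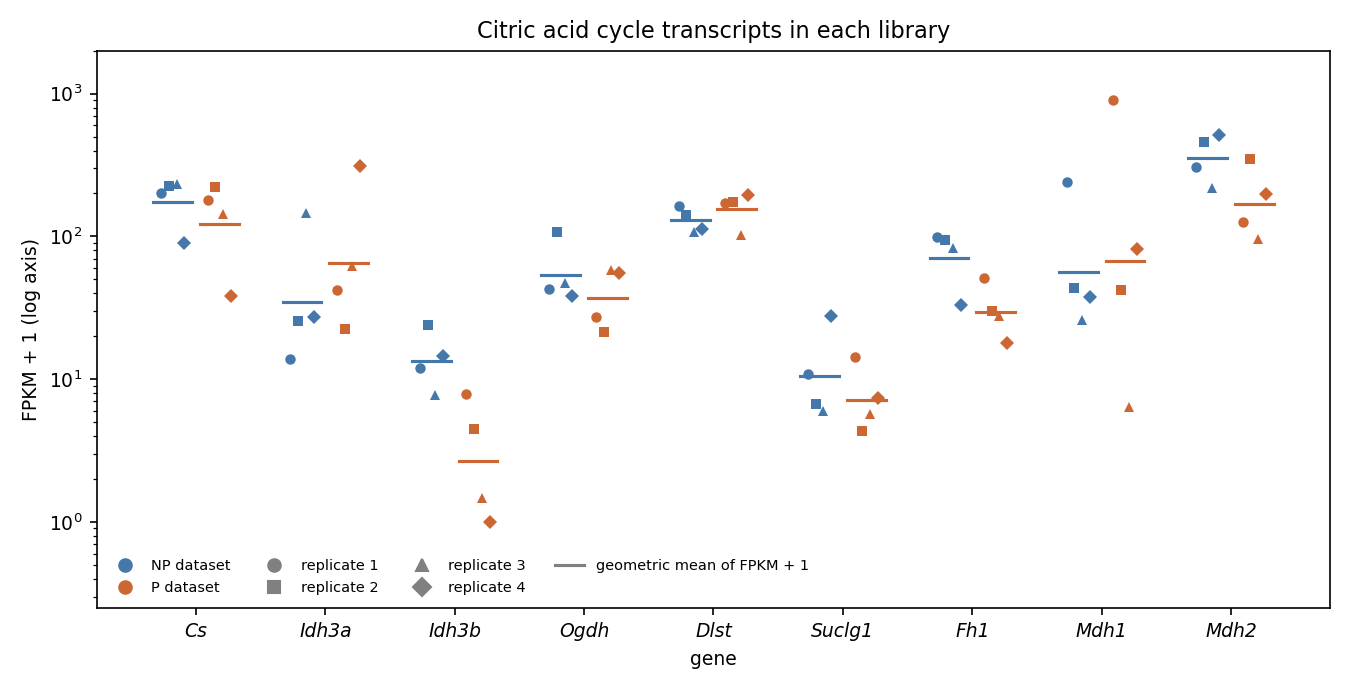
FPKM + 1 on a log axis of the 9 citric acid cycle transcripts in each of the 4 NP (blue) and 4 P (orange) libraries, with a marker shape for each replicate number and a bar at the geometric mean of FPKM + 1. Dlst stayed between 101 and 195 FPKM in all 8 libraries, whereas Mdh1 ran from 5.43 to 907 FPKM within the P dataset, and the 2 datasets overlapped for every gene.

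The first enzyme, citrate synthase (Cs), condenses acetyl-CoA with oxaloacetate. Cs lies on chromosome 10 (128337832 to 128362479, plus strand, GRCm38). Its level in NP libraries 1 to 4 was 199, 225, 233 and 88.8 FPKM, and in P libraries 1 to 4 it was 179, 222, 142 and 37.0 FPKM. Library 4 was the lowest in each dataset, and the other libraries of both datasets overlapped. The mean was 187 ± 66.7 FPKM in NP and 145 ± 79.2 FPKM in P (SD, n = 4), a log2 fold change on the log2(FPKM + 1) scale of -0.53 (SE 0.65, 95% confidence interval -1.93 to 0.87, adjusted p = 0.740 by limma). Without P library 4 the log2 fold change was 0.026.

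Isocitrate is oxidised to 2-oxoglutarate by the NAD-dependent isocitrate dehydrogenase, whose catalytic subunit is encoded by Idh3a (chromosome 9, 54586511 to 54604661, plus strand) and a further subunit by Idh3b (chromosome 2, 130279309 to 130284547, minus strand). Idh3a stood at 12.8, 24.7, 146 and 26.1 FPKM in NP libraries 1 to 4 and at 40.8, 21.5, 60.7 and 312 FPKM in P libraries 1 to 4. One library in each dataset, NP library 3 and P library 4, lay far above the other 3, which averaged 21.2 FPKM in NP and 41.0 FPKM in P. With all 8 libraries the mean was 52.4 ± 62.6 FPKM in NP and 109 ± 136 FPKM in P (SD, n = 4). The log2 fold change was 0.92 (SE 0.89, 95% confidence interval -0.996 to 2.84, adjusted p = 0.691 by limma). The ratio of mean FPKM, P over NP, turned on these libraries: it was 2.08 with all of them, 0.78 without P library 4 and 5.13 without NP library 3.

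Idh3b was the lowest of the 9 transcripts in P. Its NP libraries 1 to 4 held 10.9, 22.9, 6.70 and 13.6 FPKM, and its P libraries 6.84, 3.46, 0.460 and 0 FPKM. The highest P library lay just above the lowest NP library, so that the datasets overlapped by this 1 pair of values, and P library 4 had 0 reads, which allows up to 3 reads by counting error. The mean was 13.5 ± 6.88 FPKM in NP and 2.69 ± 3.16 FPKM in P (SD, n = 4), and the log2 fold change of -2.32 was the lowest of the 9 (SE 0.92, 95% confidence interval -4.30 to -0.35, adjusted p = 0.443 by limma). Before adjustment the p of limma for Idh3b was 0.0244. With 1 library left out at a time, the log2 fold change of Idh3b lay between -2.84 and -1.85 with adjusted p-values of 0.373 or more. The ratio of mean FPKM, P over NP, was 0.199 with all libraries and between 0.0966 (without P library 1) and 0.265 (without P library 4). Both isocitrate dehydrogenase genes were well covered in NP, with 77 to 2552 reads recovered for Idh3a and 102 to 354 for Idh3b, whereas Idh3b had 0 to 110 reads in P. The third subunit gene, Idh3g, was not among the 9, and its mean was 421 ± 388 FPKM in NP and 160 ± 147 FPKM in P (SD, n = 4).

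The next step, from 2-oxoglutarate to succinyl-CoA, is carried out by a complex whose E1 subunit, encoded by Ogdh (chromosome 11, 6291633 to 6356642, plus strand), decarboxylates the substrate and whose E2 subunit, encoded by Dlst (chromosome 12, 85110833 to 85134091, plus strand), transfers the succinyl group to coenzyme A. Ogdh reached 42.0, 106, 45.9 and 37.4 FPKM in NP libraries 1 to 4 and 26.1, 20.5, 57.2 and 54.5 FPKM in P libraries 1 to 4. NP library 2 was the highest of the 8, and the P values lay in a lower pair and an upper pair. Its mean was 57.7 ± 32.1 FPKM in NP and 39.6 ± 18.9 FPKM in P (SD, n = 4), a log2 fold change of -0.53 (SE 0.63, 95% confidence interval -1.88 to 0.82, adjusted p = 0.733 by limma).

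Dlst varied least among the 9 transcripts in each dataset. It was measured at 164, 140, 107 and 112 FPKM in NP libraries 1 to 4 and at 171, 174, 101 and 195 FPKM in P libraries 1 to 4. In 3 of the P libraries the level was above all NP values, by a margin of 171 to 164 FPKM between the nearest of them, and P library 3 was below all NP values. The mean was 131 ± 26.3 FPKM in NP and 160 ± 41.2 FPKM in P (SD, n = 4), and the log2 fold change was 0.27 (SE 0.51, 95% confidence interval -0.83 to 1.38, adjusted p = 0.825 by limma). The interval of Dlst was the narrowest of the 9, and it still allowed a difference of more than 1 log2 unit towards P.

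Succinyl-CoA is then converted to succinate with the formation of a nucleoside triphosphate by an enzyme whose alpha subunit is encoded by Suclg1 (chromosome 6, 73248382 to 73276911, plus strand). The NP libraries 1 to 4 contained 9.84, 5.67, 5.03 and 26.7 FPKM of Suclg1, and the P libraries 13.4, 3.31, 4.68 and 6.39 FPKM. The NP values enclosed all P values but those of libraries 2 and 3. Suclg1 had a mean of 11.8 ± 10.2 FPKM in NP and 6.94 ± 4.47 FPKM in P (SD, n = 4), and its log2 fold change was -0.55 (SE 0.83, 95% confidence interval -2.33 to 1.22, adjusted p = 0.780 by limma). The ratio of mean FPKM, P over NP, was 0.587 with all libraries and 1.01 without NP library 4.

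Fumarase, which adds water to fumarate to give malate, is encoded by Fh1 (chromosome 1, 175600374 to 175625635, minus strand). Fh1 levels were 97.3, 92.8, 82.4 and 32.1 FPKM in NP libraries 1 to 4, against 50.6, 29.2, 26.9 and 16.8 FPKM in P libraries 1 to 4. Only NP library 4 lay within the range of the P libraries, and without it the datasets did not overlap (82.4 against 50.6 FPKM for the nearest values). That library was picked after its value had been seen, and the share of all genes without overlap in its absence was not determined. The mean was 76.2 ± 30.01 FPKM in NP and 30.9 ± 14.2 FPKM in P (SD, n = 4), a log2 fold change of -1.26 (SE 0.62, 95% confidence interval -2.60 to 0.078, adjusted p = 0.522 by limma). Its unadjusted p in the same fit was 0.0631. Leaving out 1 library at a time gave log2 fold changes of Fh1 between -1.63 and -1.01.

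Malate dehydrogenase closes the cycle by turning malate into oxaloacetate. The mitochondrial enzyme is encoded by Mdh2 (chromosome 5, 135778480 to 135790398, plus strand) and the cytosolic one by Mdh1 (chromosome 11, 21556787 to 21572367, minus strand). Mdh2 was found at 305, 460, 219 and 510 FPKM in NP libraries 1 to 4 and at 126, 349, 94.2 and 197 FPKM in P libraries 1 to 4. P library 2 was the single P library above an NP library. The mean was 374 ± 135 FPKM in NP and 191 ± 113 FPKM in P (SD, n = 4), and the log2 fold change was -1.06 (SE 0.58, 95% confidence interval -2.30 to 0.18, adjusted p = 0.538 by limma). The unadjusted p for Mdh2 was 0.0870.

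Mdh1 behaved differently from library to library. In NP libraries 1 to 4 it was measured at 240, 42.9, 25.0 and 36.8 FPKM, and in P libraries 1 to 4 at 907, 41.4, 5.43 and 80.4 FPKM. Library 1 was the highest in each dataset, and the remaining P libraries both exceeded and fell short of the remaining NP libraries. The mean of 86.1 ± 103 FPKM in NP and 259 ± 434 FPKM in P (SD, n = 4) gave a ratio of 3.00, P over NP, of which P library 1 supplied 87.7% of the summed P level. Without P library 1 this ratio was 0.49, and the log2 fold change of Mdh1 went from 0.24 (SE 1.19, 95% confidence interval -2.32 to 2.80, adjusted p = 0.936 by limma) to -1.01. Without NP library 3 it was -0.14. The reads recovered for Mdh1 ranged from 62 in P library 3 to 10945 in P library 1, so counting error was small against a difference of 167 times between these libraries.

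**Figure D2:**
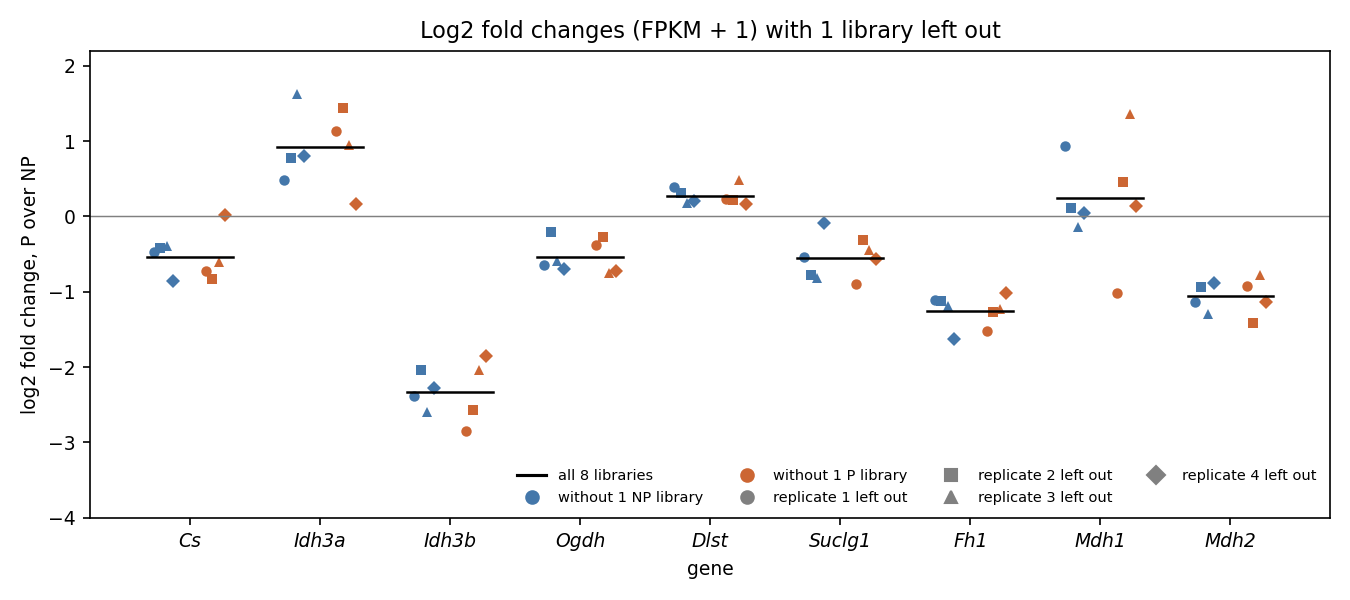
Log2 fold change, P over NP, of FPKM + 1 of each transcript with all 8 libraries (black bar) and with 1 NP (blue) or 1 P (orange) library left out, the marker shape giving the replicate number left out. Idh3b, Ogdh, Suclg1, Fh1 and Mdh2 stayed below 0 and Dlst and Idh3a above 0 in all 8 of these fits, whereas Mdh1 moved between -1.01 and 1.37.

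Ranked by geometric mean of FPKM + 1, the order in NP was Mdh2, Cs, Dlst, Fh1, Mdh1, Ogdh, Idh3a, Idh3b and Suclg1. Neighbours in this order were ranked the same way in all 4 libraries for Dlst above Fh1 and for Idh3a above Idh3b. For the other neighbours the order held in 1 to 3 of the 4 libraries. Differences in level between genes were not tested. Per annotated transcript length the order in NP placed Ogdh before Mdh1 and Suclg1 before Idh3b, and the order in P did not change. On the FPKM scale, the order in P was Mdh2, Dlst, Cs, Mdh1, Idh3a, Ogdh, Fh1, Suclg1 and Idh3b, with Idh3a above Ogdh and Fh1 above Suclg1 in all 4 libraries. The mean rank within a library, as the percentile of its FPKM among the tested genes (ties averaged), was 98.1 ± 0.65 in NP and 95.6 ± 2.34 in P for Mdh2 and 94.1 ± 0.73 in NP and 95.6 ± 1.03 in P for Dlst (SD, n = 4). At the other end, Idh3b ranked at 65.6 ± 9.37 in NP and 43.9 ± 19.3 in P, and Suclg1 at 60.9 ± 13.3 in NP and 63.5 ± 5.68 in P. The summed level of the 9 transcripts was 989 ± 130 FPKM in NP and 944 ± 426 FPKM in P (SD, n = 4). Mdh1 made up 59.7% of this sum in P library 1 and 1.10% in P library 3.

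The spread between libraries was far above what counting of reads gives. The observed coefficient of variation was 20.2% to 120% in NP and 25.7% to 168% in P, while the one from counting alone was 2.17% to 9.74% in NP and 1.86% to 16.3% in P. The RNA was amplified from small inputs before sequencing, and the part of that step in the spread was not tested. In P, library 1 was the highest for 4 of the 9 transcripts and the lowest for 0, and libraries 2, 3 and 4 were each the lowest for 3. In NP, library 3 was the lowest for 5 of the 9.

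Across the list, 6 log2 fold changes were negative and 3 were positive, with a median of -0.53. The median of all 14292 genes tested was -0.39, and 71.4% of them were negative, so the direction of most of the 9 was also that of most genes. All P libraries lay below all NP libraries for 0 of the 9 transcripts, against 5.92% of all genes, and above all NP libraries for 0 of the 9, against 0.357% of all genes. How the libraries are brought to a common scale sets the sign of several of these values. When every library was scaled to one median FPKM, the median of all genes moved to 0.21, and the log2 fold changes of Cs, Ogdh, Suclg1, Fh1 and Mdh2 became 0.80, 0.78, 0.60, 0.048 and 0.27. After quantile normalization only Suclg1 changed sign, to 0.21, and Cs, Ogdh, Fh1 and Mdh2 stayed at -0.29, -0.28, -0.97 and -0.90. Relative to the median of all genes tested under the same setting, the value of Idh3b remained between -2.72 and -1.71 over the settings that kept all 8 libraries, that of Fh1 between -0.95 and -0.16, that of Dlst between 0.45 and 1.39 and that of Idh3a between 1.05 and 2.02, whereas the value of Mdh2 lay between -0.88 and 0.06. Dlst was the one transcript whose P values were all above its NP values after the median scaling (178 against 124 scaled FPKM for the nearest values), a single gene among 9. The share of all genes with this property after that scaling was not determined, so the separation of Dlst has no background to be read against.

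Ratios between enzymes of one step or one complex depend little on the scaling between libraries where both levels are well above the pseudocount of 1 added to each, and 3 were compared. Idh3b in P libraries 3 and 4 was below that pseudocount. These pairs were chosen after the means of the datasets had been seen. The log2 ratio of Idh3a to Idh3b in libraries 1 to 4 was 0.21, 0.10, 4.25 and 0.89 in NP and 2.42, 2.34, 5.40 and 8.29 in P. Of the NP libraries, 3 were below all P libraries and NP library 3 was within their range. The mean ratio was 1.36 ± 1.96 in NP and 4.61 ± 2.84 in P (SD, n = 4), a difference of 3.25 (exact permutation test over 70 assignments, 2-sided, p = 0.114, adjusted over 3 ratios p = 0.343). With a pseudocount of 0.1 the difference was 4.46, and with 1 library left out it lay between 2.02 (without P library 4) and 4.21 (without NP library 3), with p-values of 0.0571 or more. The smallest p that 4 against 4 libraries allow in this exact test is 0.0286. Exact sign changes over the 4 same-numbered pairs allow no p below 0.125.

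For the 2 malate dehydrogenases, the log2 ratio of Mdh1 to Mdh2 was -0.34, -3.39, -3.08 and -3.76 in NP libraries 1 to 4 and 2.84, -3.04, -3.89 and -1.28 in P libraries 1 to 4. Mdh2 was the higher of the pair in 7 of 8 libraries, and only in P library 1 was Mdh1 the higher. The means of -2.64 ± 1.56 in NP and -1.34 ± 2.99 in P (SD, n = 4) differed by 1.30 (exact permutation test, 2-sided, p = 0.600, adjusted p = 0.600), and without P library 1 the difference was -0.094. The log2 ratio of Ogdh to Dlst, the E1 and E2 subunits, was -1.94, -0.40, -1.21 and -1.55 in NP and -2.67, -3.02, -0.81 and -1.82 in P. On the FPKM scale Dlst was the higher of these in all 8 libraries, and the means of -1.28 ± 0.65 in NP and -2.08 ± 0.99 in P (SD, n = 4) differed by -0.80 (exact permutation test, 2-sided, p = 0.257, adjusted p = 0.386).

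**Figure D3:**
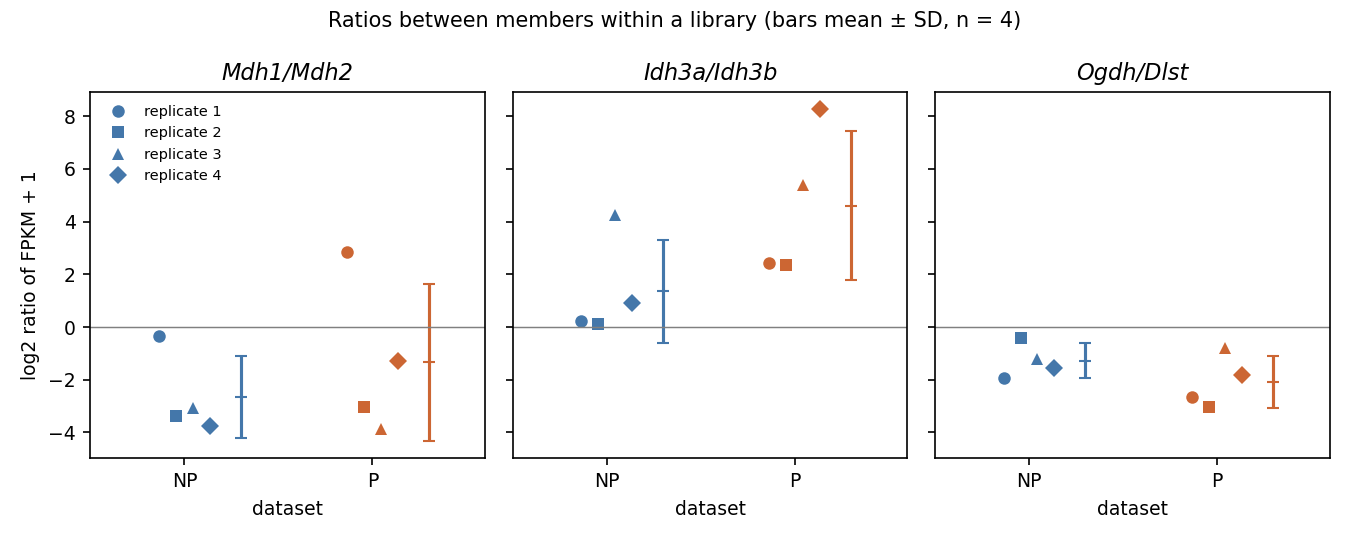
Log2 ratios of FPKM + 1 within each library for Mdh1 to Mdh2, Idh3a to Idh3b and Ogdh to Dlst in the 4 NP (blue) and 4 P (orange) libraries, with a marker shape for each replicate number and bars for the mean ± SD (n = 4). The Idh3a to Idh3b ratio was above 2.3 in all P libraries but also reached 4.25 in NP library 3, and the Mdh1 to Mdh2 ratio was above 0 in P library 1 only.

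Translation of stored oocyte mRNAs is known to be controlled through short elements near the 3′ end, the cytoplasmic polyadenylation elements, together with the polyadenylation signal. The final 100 nucleotides of the 3′ UTR were searched on the mRNA strand for TTTTAT and TTTTAAT, which are common forms of that element, in 1 annotated protein-coding transcript a gene (GENCODE M21, GRCm38). A match was found in 2 of the 9 transcripts, Cs and Fh1, and in 17.8% of the 19106 genes with a 3′ UTR of that length. In both the match began within 15 nucleotides of the annotated end, after an AATAAA polyadenylation signal. The last bases of these transcripts are shown because they hold the only matches in the list, with the match in capitals, 5′ to 3′ on the mRNA strand:
Cs (3′ UTR, chr10:128362455-128362479, plus strand): ataataaatgtTTTTATtaacaatg
Fh1 (3′ UTR, chr1:175600374-175600399, minus strand): aataaagtttaTTTTATaaaagaaaa
The log2 fold changes given above for these transcripts were -0.53 for Cs and -1.26 for Fh1. A match of letters is not a tested site. The annotated 3′ UTRs of the 9 transcripts ranged from 183 nucleotides in Mdh2 and 203 in Suclg1 to 1335 in Dlst and 1347 in Cs, around a median of 732 for all genes, and their coding sequences from 1005 nucleotides in Mdh1 to 3105 in Ogdh, with a median of 1182 for all genes.

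The cycle has further enzymes that are not among the 9, and 11 of their genes were examined as a list. All 11 were tested and limma called 0, against 0.021% of all genes. At an unadjusted p below 0.05, 0 were lower in P, against 9.47% of all genes, and 0 were higher, against 0.476%. Their log2 fold changes were negative for 9 and positive for 2, with a median of -0.94 against -0.39 for all genes. Succinate dehydrogenase also forms complex II of the respiratory chain. Sdhb, its iron-sulphur subunit, had a mean of 11.2 ± 7.41 FPKM in NP and 2.53 ± 2.02 FPKM in P (SD, n = 4, log2 fold change -1.68, adjusted p = 0.533 by limma). Sdha, the flavoprotein subunit, had 46.6 ± 35.2 FPKM in NP and 17.9 ± 10.2 FPKM in P (log2 fold change -1.20, adjusted p = 0.591). The membrane anchor subunits Sdhc and Sdhd had log2 fold changes of -0.54 and -0.30. Ogdhl, a relative of Ogdh, had 14.0 ± 1.25 FPKM in NP and 9.26 ± 10.8 FPKM in P (log2 fold change -1.12, adjusted p = 0.644). Dld, the E3 subunit that the 2-oxoglutarate dehydrogenase shares with pyruvate dehydrogenase, was on the other side, with 7.43 ± 6.53 FPKM in NP and 16.6 ± 4.42 FPKM in P (log2 fold change 1.46, adjusted p = 0.557).

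A second list held 21 genes that feed the cycle, drain it or carry its intermediates across the inner membrane, of which 20 passed the filter on low values and Me3 did not. Limma called 0 of the 20, against 0.021% of all genes. At an unadjusted p below 0.05, 6 were lower in P, against 9.47% of all genes, and 0 were higher, against 0.476%. In this list 1 gene, the aspartate-glutamate carrier Slc25a12, had all P libraries below all NP libraries (0.734 to 4.40 FPKM in NP and 0 to 0.406 FPKM in P), against 5.92% of all genes. Both subunits of the mitochondrial pyruvate carrier were among the 6. Mpc2 had a mean of 12.4 ± 9.16 FPKM in NP and 1.04 ± 1.43 FPKM in P (SD, n = 4, log2 fold change -2.56, adjusted p = 0.416 by limma), and Mpc1 had 26.9 ± 19.8 FPKM in NP and 4.42 ± 3.77 FPKM in P (log2 fold change -2.37, adjusted p = 0.420). A pseudogene of Mpc1 is listed separately, so its reads may be divided. The citrate carrier Slc25a1, which exports citrate to the cytosol, had 218 ± 174 FPKM in NP and 49.8 ± 48.9 FPKM in P (log2 fold change -2.45, adjusted p = 0.471).

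The highest log2 fold changes of that list, though not its highest levels, belonged to 2 subunits of pyruvate dehydrogenase, which makes the acetyl-CoA used by Cs, and to a carrier. Dlat, the E2 subunit, had 8.71 ± 6.91 FPKM in NP and 15.9 ± 15.1 FPKM in P (SD, n = 4, log2 fold change 0.35, adjusted p = 0.889 by limma). Pdhb, the beta subunit of E1, had 68.5 ± 78.2 FPKM in NP and 130 ± 131 FPKM in P (log2 fold change 0.24, adjusted p = 0.938). Pdha1 and Pdhx, further components of pyruvate dehydrogenase, were on the other side of 0, with log2 fold changes of -0.17 and -0.22. Slc25a13, the second aspartate-glutamate carrier, had 18.2 ± 15.5 FPKM in NP and 18.9 ± 14.2 FPKM in P (log2 fold change 0.11, adjusted p = 0.957). Over the 20 genes, 15 log2 fold changes were negative and 5 were positive, with a median of -0.91 against -0.39 for all genes.

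**Figure D4:**
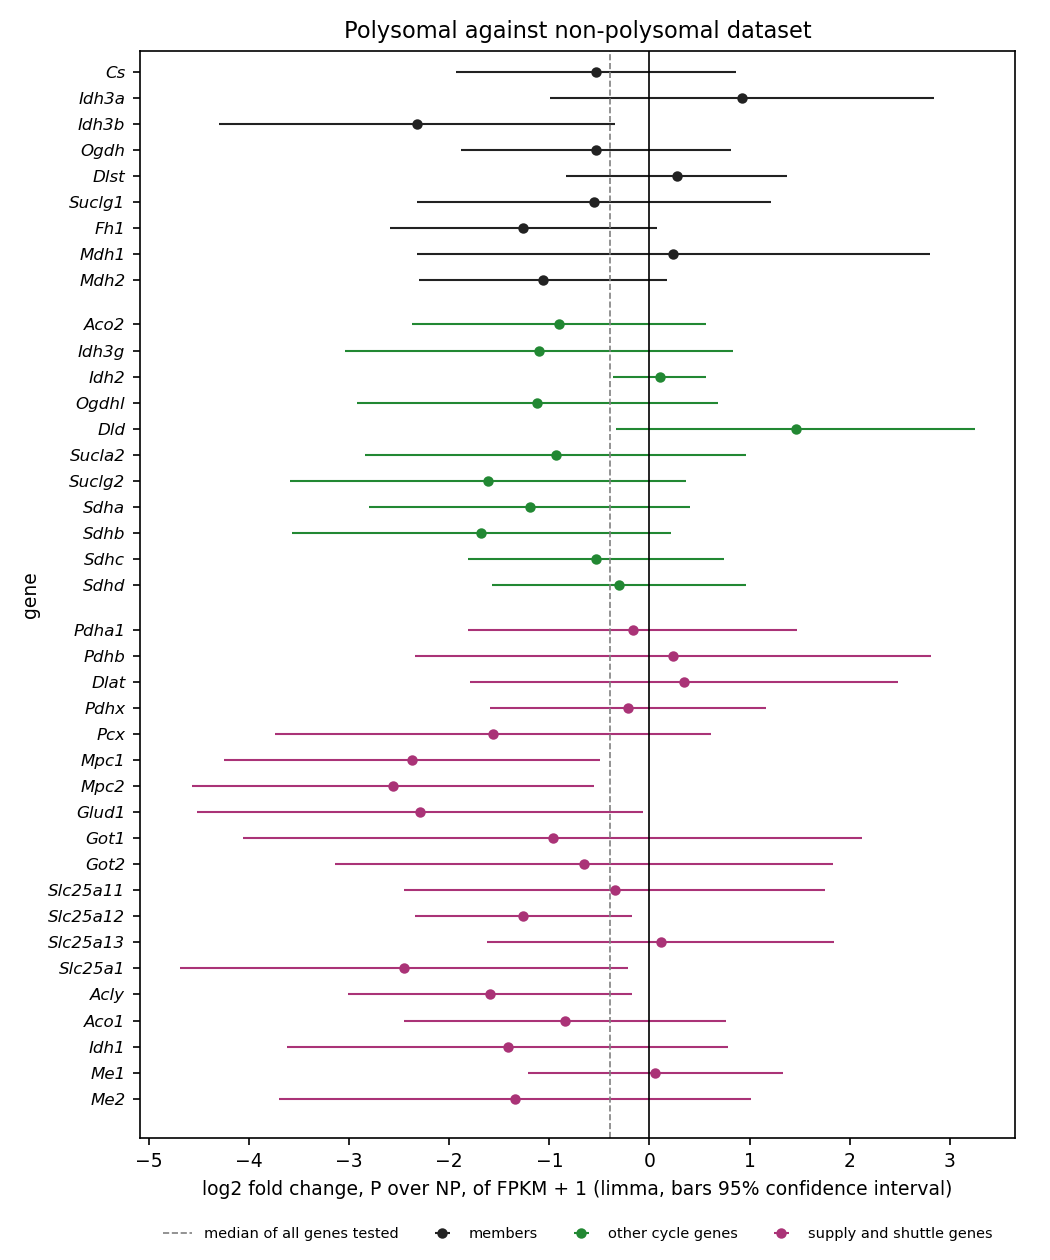
Log2 fold change, P over NP, of FPKM + 1 with the 95% confidence interval from limma for the 9 transcripts (black), the 11 other genes of the cycle (green) and 19 of the 20 tested supply and shuttle genes (purple), with the median of all genes tested as a dashed line. The interval lay wholly below 0 for Idh3b and for 6 supply and shuttle genes and wholly above 0 for none, and no adjusted p was below 0.416.

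As a description of the 8 libraries, the log2(FPKM + 1) of Mdh1 was most alike to that of Nup35, Pomp and C87977, with Pearson r of 0.972, 0.968 and 0.921 among 5638 genes with a mean above 10 FPKM. For Mdh2 the genes were Ccdc124, 1190005I06Rik and 2900010M23Rik, with r of 0.978, 0.961 and 0.956. The 8 points share their libraries and amplification. For Mdh1 they run from 5.43 FPKM in P library 3 to 907 FPKM in P library 1, and which points lead r was not tested. A few neighbouring genes overlap the 9 on the opposite strand, which matters because the use of strand in the quantification was not stated by the authors. Kmo overlaps Fh1 by 5255 bases and was at 0 in all 8 libraries, Wdpcp overlaps Mdh1 by 133 bases with 0 to 7.47 FPKM, and Nop56 overlaps Idh3b by 5 bases with 9.06 to 146 FPKM.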

How the data were processed

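RNA of pooled non-polysomal (NP) or polysomal (P) gradient fractions was amplified as cDNA after removal of rRNA and sequenced. The authors trimmed reads with Trim Galore 0.4.1, checked them with FastQC 0.11.5, used HISAT2 2.0.5 for mapping to GRCm38, and deposited FPKM values per gene and library, quantified in Seqmonk. No normalization between libraries beyond FPKM was stated. Amplification from small inputs can widen the spread between libraries, and FPKM shares within a library depend on its most abundant genes. The deposited tables of means and of the authors' DESeq2 comparison (p-values, FDR, fold changes) were not used.

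Groups came from the sample titles. P was compared with NP in limma 3.58.1 (R 4.3.3; lmFit, eBayes with a trend, 2-sided) on log2(FPKM + 1). The 14292 genes whose mean exceeded 0.1 FPKM in NP or P entered, p-values were adjusted over all of them (Benjamini-Hochberg), and the threshold was 0.1. The study used DESeq2, which needs counts, and FPKM values are not counts. Whole reads were recovered from the FPKM steps for 15494 of 15585 genes with a value above 0 (tolerance 0.01 read), from 1 number per library and a gene length that was annotated or searched between 100 and 15000 bp, and whether they are reads or read pairs is not settled. They were used for counting error and for limma voom, an alternative added after seeing the data. Ratios within a library were compared by exact permutation tests with scipy 1.17.1 in Python 3.11.15. Fits were tested on simulated data. Intervals from reads cover counting error only, since amplified reads without molecular identifiers are not independent molecules. Coordinates are those of the deposited table, and 3′ UTRs are from GENCODE M21.

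Alternatives were pseudocount, filter, scaling, replicate block and leaving out each library. By rule, the genes named are the 9 enzymes, up to 3 genes with the highest and lowest log2 fold changes in each of 2 lists (mean above 10 FPKM in the higher dataset), the 3 genes most alike to Mdh1 and Mdh2, and genes overlapping the 9. Further genes, among them Idh3g, Sdhc, Sdhd, Slc25a12, Pdha1 and Pdhx, were named outside this rule. Mpc1 and Mpc2 were matched by their older symbols Brp44l and Brp44. The values of 1 gene of the supply and shuttle list are not reported here. The enzymes, lists and tests were chosen with earlier results of these data known.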

Additional observations from a re-analysis of the deposited data

Results flagged for a closer look

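Among 24 sets of 4 values examined (the FPKM of 9 transcripts and 3 ratios, in each dataset), 5 held a value whose gap to its nearest neighbour took up more than 82.9% of the range, the limit of Dixon's test at 95% for 4 values. For normally distributed values chance passes this limit in about 1 in 20 sets, which does not hold for skewed FPKM values. On log2(FPKM + 1) none of the 5 passed it, and 2 other FPKM sets did, Cs and Fh1 in NP, each through the low value of library 4 (83.7% and 84.9% of the range). In all 5 the value was the highest of its dataset.

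Mdh1 was set apart in library 1 of both datasets, at 240 FPKM in NP and 907 FPKM in P, and each gap was 91.7% of the range. Idh3a stood apart at 146 FPKM in NP library 3 (90.0%) and at 312 FPKM in P library 4 (86.5%). Ogdh stood apart at 106 FPKM in NP library 2 (87.7%). These libraries differ from gene to gene, and 77 or more reads were recovered for each of the 3 genes in every library but P library 3, where Mdh1 had 62.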

How the results depend on the processing

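Counting error of recovered reads was below the spread of the 9 transcripts, but how many molecules were sampled before amplification is not known. Limma called 0 of the 9, 0 of the 11 other cycle genes and 0 of the 20 supply and shuttle genes under every alternative run. The number called over all genes was 3, and it was 5 with a pseudocount of 0.1, 0 without a filter, 5 with a mean FPKM above 1, 0 after median scaling, 0 after quantile normalization, 195 with voom on recovered reads and 0 to 5 when 1 library was left out. With the replicate block it was 1. The gradients gave both pools, but no source used here ties a number to one gradient, and same-numbered deviations correlated at 0.139, 0.0518, 0.251 and 0.155, with 3 of the 4 numbers correlating best with their own. By number, P was below NP in all 4 libraries for 4 of the 9 (Cs, Idh3b, Fh1 and Mdh2), against 16.4% of all genes, and above in all 4 for 0, against 2.204%. With the block the adjusted p was 0.355 for Idh3b and 0.404 for Fh1 and Mdh2. The replicate block changed no call for the 9 transcripts or the ratios (p = 0.125 for Idh3a to Idh3b by exact sign changes, the smallest 4 pairs allow).

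Of 135 log2 fold changes of the 9 transcripts over 15 alternatives, 9 changed sign and none had an adjusted p below 0.288. After median scaling the values were 0.80 for Cs, 0.78 for Ogdh, 0.60 for Suclg1, 0.048 for Fh1 and 0.27 for Mdh2, and after quantile normalization 0.21 for Suclg1. Leaving out P library 4 gave 0.026 for Cs (range -0.86 to 0.026 with 1 library left out), and leaving out NP library 3 or P library 1 gave -0.14 or -1.01 for Mdh1 (range -1.01 to 1.37). The median log2 fold change of the 9 was 0.78 after median scaling, -0.28 after quantile normalization, -0.39 with voom and -0.89 to -0.31 with 1 library left out. The Mdh1 to Mdh2 difference ranged from -0.094 to 2.15 with 1 library left out. Transcripts with all P below all NP numbered 0 to 2 with 1 library left out and those with all P above numbered 0 to 1, and after median scaling 1 was above. The matching shares of all genes under these settings were not determined. The cause of these shifts was not tested.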

Other observations

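Among the genes of the cycle, the NADP-dependent mitochondrial isocitrate dehydrogenase Idh2 was nearly absent, at 0.121 FPKM in NP library 1, 0.493 FPKM in P library 1 and 0 in the other 6 libraries, while its cytosolic relative Idh1 had a mean of 23.3 ± 13.9 FPKM in NP and 13.9 ± 14.1 FPKM in P (SD, n = 4). The cytosolic malic enzyme Me1 was at 169 ± 89.6 FPKM in NP and 168 ± 70.4 FPKM in P. The glutamate-oxaloacetate transaminase Got1, the cytosolic partner of Mdh1 in the shuttle, was at 40.3, 30.6, 13.9 and 4.36 FPKM in NP libraries 1 to 4 and at 335, 7.99, 0.354 and 0.735 FPKM in P libraries 1 to 4. Library 1 was thus the highest of each dataset for Got1, as it was for Mdh1. These genes were named after their values had been seen.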
